A study of Mus musculus with 10 samples.

Results

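Transcripts of the subunits of complex III, complex IV and ATP synthase were examined in leukemic mouse spleens. The mice had been transplanted with T-ALL, acute lymphoblastic leukemia of the T lineage, in which immature T cells grow as a cancer. The genes were taken by symbol from the deposited table: those beginning with Uqcr or Atp5, or with Cox followed by a digit from 4 to 8 and a letter, with any symbol holding the pseudogene mark -ps left out. This gave 41 of the 20813 genes of the table, 8 of complex III, 16 of complex IV and 17 of ATP synthase. The rule uses symbols and no measured value. The leukemias were conditional Sirt1 knockouts injected into recipients that had been irradiated below the lethal dose, so every sample shares the transplant, the irradiation and the conditional allele. The strain label is C57BL/6, and recipients were given either tamoxifen, at 3 mg per mouse in corn oil, or corn oil alone. Spleens were passed through a filter and freed of red cells by lysis before total RNA was sequenced from strand-specific libraries. The 5 samples named labelled Sirt1-deleted (numbers 7, 8, 10, 11 and 12) carry that genotype in the labels and the tamoxifen abbreviation in their titles, and the 5 controls (numbers 2 to 6) carry the vehicle abbreviation. Treatment and deletion coincide in all 10 samples and cannot be told apart. The labels do not say whether the samples of a group came from separate leukemias, so p-values measure the spread between these samples only. The Cre driver and the ages of the mice are not given in the sources used here.

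These 3 complexes form the last steps of oxidative phosphorylation. Complex III (ubiquinol-cytochrome c reductase) passes electrons from ubiquinol to cytochrome c, complex IV (cytochrome c oxidase) passes them from cytochrome c to oxygen, and ATP synthase uses the proton gradient that they build to make ATP. Each complex joins a catalytic core to small nuclear-encoded accessory subunits, and each also needs subunits encoded by mitochondrial DNA. Several complex IV subunits have a ubiquitous form and a form restricted to heart, muscle, lung or testis. SIRT1 is a NAD-dependent deacetylase known, among other substrates, for acting on PGC-1alpha, a coactivator of mitochondrial genes.

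Values are DESeq-normalized counts, in which each gene's count is divided by a factor of the sample. They are called normalized counts here and are not scaled by gene length. Sirt1 was 1925, 1715, 1817, 1812 and 2097 in labelled Sirt1-deleted samples 7, 8, 10, 11 and 12. In control samples 2 to 6 it was 1735, 1803, 1796, 1909 and 1810. The groups overlapped, and the log2 difference of 0.05 (SE 0.06, limma adjusted p = 0.568) was not called, so the gene-level value does not set the labelled groups apart. Normalized counts summed to 33.7 to 34.5 M (mega) per sample. On the first principal component (39.2% of the variance), labelled Sirt1-deleted samples 10 and 11 lay at 9.41 and 12.9, the other labelled Sirt1-deleted samples at 39.2 to 52.1, and the controls at -46.1 to -22.0. T lineage markers were high throughout, at a summed 340600 to 390700 normalized counts in labelled Sirt1-deleted spleens against 326400 to 351200. Of these 16 markers, 3 were called higher and 3 lower. Neutrophil markers moved with the groups: 15 of 16 were called higher, and they summed to 29180 to 101900 against 9232 to 12740. Macrophage and monocyte markers did so too, with 12 of 15 higher and sums of 6969 to 12380 against 3398 to 3891. The 13 erythroid markers were not called (41060 to 165400 against 45570 to 138600), and of the B cell markers 1 of 9 was higher (23460 to 33970 against 19400 to 24550). No neutrophil, macrophage, erythroid, B cell or T lineage marker of the table was at 0 in every sample. The part of these other cells in the differences below was not tested. In such bulk RNA, fewer cells of a type and less RNA per cell cannot be told apart.

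Subunit transcripts were mostly higher in the labelled Sirt1-deleted samples, by modest amounts. Higher calls lay mostly among small subunits, and also on the larger Atp5f1. None fell on the large nuclear-encoded core genes Uqcrc1, Uqcrc2, Atp5a1 and Atp5b. Mitochondrially encoded core subunits lie outside the symbol rule, and mt-Cytb, mt-Co1, mt-Co2 and mt-Co3 were higher, by 0.31 to 0.47 on the log2 scale. A gene was tested when its mean normalized count was at least 10, and called at a Benjamini-Hochberg adjusted p under 0.05 in limma over all 15276 tested genes. Of the 41 subunit genes, 39 were tested. Of these, 24 were higher, 2 were lower (Cox7a2l and Atp5a1) and 13 were not called. Among all tested genes 16.8% were called higher and 19.4% lower, 36.1% in all. The median log2 difference of the 39 genes was 0.20, against -0.00014 for all tested genes, and single genes ranged from -0.28 to 0.53. Values of the groups did not overlap for 21 subunit genes that were higher and 4 that were lower, where all tested genes gave 11.1% and 12.9%. By complex, 5 of 8 tested genes were higher and 0 lower in complex III by limma (2 lower at an unadjusted p under 0.05, 1 by an exact rank-sum test), 10 of 14 higher and 1 lower in complex IV, and 9 of 17 higher and 1 lower in ATP synthase. The medians were 0.21, 0.23 and 0.19 on the log2 scale.

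These counts changed in fits that corrected for gene properties. Each such correction also brought all samples to the same mean log2 value over the genes, a recentring that the main fit did not have. After a correction of each sample for transcript length and GC content, chosen after seeing the data, 6 of the 39 genes were higher and 8 lower. All tested genes then gave 11.9% higher and 25.2% lower. The median of the 39 genes was 0.004 after the correction, against -0.07 for all genes tested. Correcting for length alone left 5 higher and 7 lower (11.6% and 25% of all tested genes). Correcting for GC content alone left 18 higher and 5 lower (12.8% and 27.1%). Both were also chosen after seeing the data. With GC content alone the median was 0.13 for the 39 genes and -0.06 for all tested genes. How much of the change in these counts came from the recentring was not tested. Without labelled Sirt1-deleted samples 10 and 11, also chosen after seeing the data, 24 genes were higher and 6 lower, where all tested genes gave 21% and 24.5%.

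**Figure D1:**
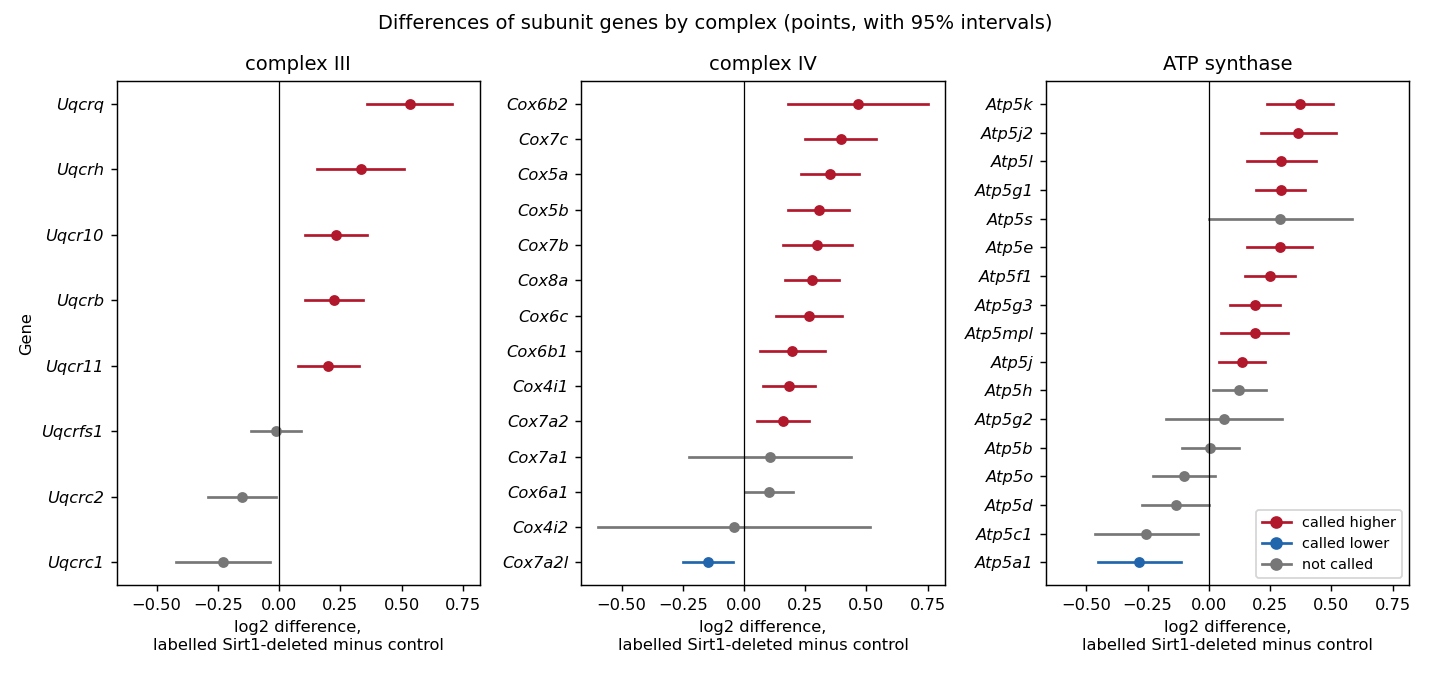
Log2 difference (labelled Sirt1-deleted minus control, horizontal axis) with its 95% interval for the 39 tested subunit genes (vertical axis), in 1 panel per complex. Red genes were called higher, blue lower and grey were not called: the 5 accessory genes of complex III stand at 0.20 to 0.53, and Atp5a1 is lowest at -0.28.

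Promoter sequences were matched in RefSeq (GRCm38.p6) for 32 of the 41 genes, in 35 windows that run from 250 bases before to 50 bases after a start site. Those shown are the matched genes with the largest called rise in each complex (Uqcrh, Cox6b2 and Atp5k) and the matched gene that was called lower (Cox7a2l), because genes of these complexes are known to share promoter motifs. All lie on the minus strand and are written 5′ to 3′ as transcribed, with motif matches in capitals. Uqcrh is at chr4:116075021-116075320, Cox6b2 at chr7:4753045-4753344, Atp5k at chr5:108434350-108434649 and Cox7a2l at chr17:83514284-83514583.
Uqcrh: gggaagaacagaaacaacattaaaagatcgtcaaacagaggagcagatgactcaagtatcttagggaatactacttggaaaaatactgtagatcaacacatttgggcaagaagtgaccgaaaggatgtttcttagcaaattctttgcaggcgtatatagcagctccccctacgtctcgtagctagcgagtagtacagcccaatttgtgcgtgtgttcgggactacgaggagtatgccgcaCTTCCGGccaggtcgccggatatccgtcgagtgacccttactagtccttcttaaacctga
Cox6b2: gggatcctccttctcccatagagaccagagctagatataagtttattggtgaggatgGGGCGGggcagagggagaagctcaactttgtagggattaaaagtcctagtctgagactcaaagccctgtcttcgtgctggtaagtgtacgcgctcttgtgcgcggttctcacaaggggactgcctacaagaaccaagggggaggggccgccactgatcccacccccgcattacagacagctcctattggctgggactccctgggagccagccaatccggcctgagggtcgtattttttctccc
Atp5k: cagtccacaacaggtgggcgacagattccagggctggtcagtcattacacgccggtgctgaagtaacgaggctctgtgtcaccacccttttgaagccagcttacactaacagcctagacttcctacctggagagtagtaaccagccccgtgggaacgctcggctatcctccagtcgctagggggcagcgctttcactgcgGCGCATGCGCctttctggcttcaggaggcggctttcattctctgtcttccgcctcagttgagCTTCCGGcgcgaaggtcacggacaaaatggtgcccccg
Cox7a2l: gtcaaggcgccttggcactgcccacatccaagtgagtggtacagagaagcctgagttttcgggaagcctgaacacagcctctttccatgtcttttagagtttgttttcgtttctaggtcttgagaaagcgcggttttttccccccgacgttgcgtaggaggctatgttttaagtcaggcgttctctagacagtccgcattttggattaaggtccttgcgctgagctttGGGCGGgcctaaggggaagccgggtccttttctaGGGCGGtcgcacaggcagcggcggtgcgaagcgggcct
In the Uqcrh window the capitals mark an ETS motif, in Cox6b2 an SP1 motif, in Atp5k an NRF1 motif followed by an ETS motif, and in Cox7a2l 2 SP1 motifs. Each motif was searched on both strands as fixed letters, with N for any base. NRF1 is the nuclear respiratory factor, and its motif, with 1 free base at its centre, was in 22.9% of the subunit windows and 4.6% of all 32851 windows of the table. The ETS motif CCGGAAG was in 28.6% and 8.86%. The YY1 motif AAGATGGC was in 8.57% and 2.75%, and the estrogen-related receptor motif TCAAGGTCA in 2.86% and 0.423%. The GC-box GGGCGG of SP1 was about as frequent in both, at 34.3% and 35.7%. The letters of a motif can overlap those of another, and a match is a description of the sequence only. Genes with a match differed in their calls. For comparison, 24 of the 39 tested subunit genes and 16.8% of all tested genes were higher. The NRF1 motif was in the windows of Atp5k and Atp5g3, which were higher, and of Uqcrc1, Cox6a1, Atp5c1, Atp5g2, Atp5h and Atp5o, which were not called. The ETS motif was in those of Uqcrh, Uqcr11, Cox6b1, Cox8a, Atp5e, Atp5j, Atp5k and Atp5l, all higher. It was also in those of Cox6a1 and Atp5h, which were not called. The genes with an ETS match had 156 to 483 coding bases, and those with an NRF1 match 213 to 1440. Higher calls were more frequent among short genes, as given below, and a link between motifs and calls was not tested. The YY1 motif was in Atp5f1, Atp5j and Atp5j2, all higher, and the estrogen-related receptor motif in Atp5g3. SP1 matches included higher genes, the lower Cox7a2l and genes that were not called, such as Atp5b and Atp5s.

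In complex III, all 5 small accessory subunits were higher and none of the 3 larger nuclear-encoded subunits of the set was. Uqcrq had the largest difference of any subunit gene. Uqcrh, the hinge protein beside cytochrome c1, and Uqcr10, Uqcrb and Uqcr11 followed at 0.20 to 0.33 on the log2 scale. The core proteins Uqcrc1 and Uqcrc2, which face the matrix, had negative differences that were not called.

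Uqcrq (GRCm38 chr11:53427922-53430831) encodes a small subunit that contacts cytochrome b. Its normalized counts in labelled Sirt1-deleted samples 7, 8, 10, 11 and 12 were 5595, 5264, 5039, 5174 and 6743. Controls 2 to 6 had 3401, 3768, 4188, 3839 and 3965. Every labelled Sirt1-deleted sample lay above every control, and sample 12 was highest. The means were 5563 ± 691 and 3832 ± 289 (SD, n = 5 each), a log2 difference of 0.53 (SE 0.08, adjusted p = 7.89e-04). It was the single gene of complex III that was still called higher after the length and GC correction, at 0.34 (adjusted p = 0.00464).

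Uqcrh (chr4:116066965-116075071) had 6766, 6303, 5505, 5905 and 7681 normalized counts in the labelled Sirt1-deleted samples in the same order. Its controls had 4573, 5132, 5410, 4922 and 5351. The groups were separated by the narrow step between control 4 and sample 10. The log2 difference was 0.33 (SE 0.08, adjusted p = 0.00833), and it was 0.13 after the length and GC correction (adjusted p = 0.224). Uqcr10 (chr11:4701973-4704342) had 3959, 3708, 3609, 3712 and 4351 normalized counts, against 3063, 3185, 3417, 3293 and 3483 in controls. These did not overlap either, and sample 12 was again highest. Its log2 difference was 0.23 (SE 0.06, adjusted p = 0.00984), and 0.03 after the correction (adjusted p = 0.665).

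The remaining accessory genes, Uqcrb and Uqcr11, differed by 0.22 (adjusted p = 0.00760) and 0.20 (adjusted p = 0.0176), without overlap of the groups. After the correction both stood at -0.004 and -0.005. All 5 accessory genes kept their call in each of the 10 fits that left out 1 sample.

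Uqcrc1 (chr9:108936633-108949623) ran the other way. It had 3380, 3769, 4038, 4044 and 2781 normalized counts in the labelled Sirt1-deleted samples, against control values of 4261, 4058, 4117, 4203 and 4267. Sample 12 was far below the rest, samples 10 and 11 were just under the lowest control, and the groups did not overlap. The log2 difference was -0.23 (SE 0.09, 95% interval -0.42 to -0.04, adjusted p = 0.0616). It passed as lower without sample 10 (-0.27, adjusted p = 0.0275), without sample 11 (-0.27, adjusted p = 0.0328), without both (-0.35, adjusted p = 0.00472), and after the length and GC correction (-0.32, adjusted p = 0.0204). It also passed by the exact rank-sum test (adjusted p = 0.0332) and with array weights (adjusted p = 0.0214). It was not called under upper-quartile rescaling (-0.17, adjusted p = 0.103), quantile normalization (-0.17, adjusted p = 0.105) or without the intensity trend (adjusted p = 0.107). Uqcrc2 also had a negative difference, at -0.15 (95% interval -0.29 to -0.01, adjusted p = 0.0808), but its groups overlapped. It was lower without sample 10 (adjusted p = 0.0389), without sample 11 (adjusted p = 0.0333) or without both (-0.24, adjusted p = 0.00380), and after the correction (-0.23, adjusted p = 0.0118), as with array weights (adjusted p = 0.0232). The exact rank-sum test did not call Uqcrc2 (adjusted p = 0.184). Nor did limma under upper-quartile rescaling (-0.09, adjusted p = 0.194), quantile normalization (-0.10, adjusted p = 0.199) or without the intensity trend (adjusted p = 0.13). The Rieske iron-sulfur subunit Uqcrfs1, which takes electrons from ubiquinol, differed by -0.01 (95% interval -0.11 to 0.09, adjusted p = 0.874). Its sign turned to positive under upper-quartile rescaling and quantile normalization, and with the length and GC correction it was lower, at -0.12 (adjusted p = 0.0409).

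**Figure D2:**
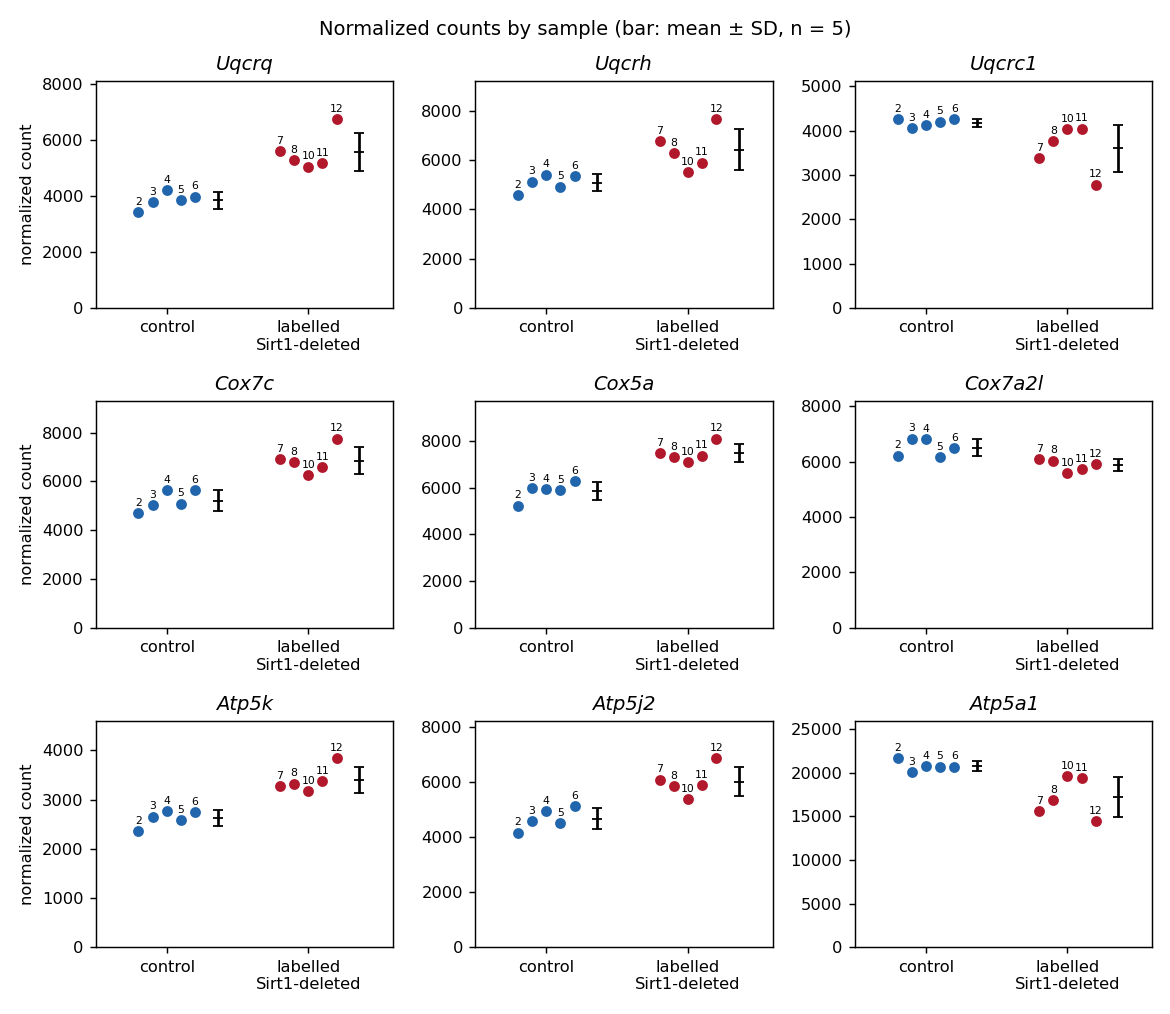
Normalized count (vertical axis, from 0) of 9 subunit genes in each control (blue) and labelled Sirt1-deleted (red) sample, with sample numbers and a bar for the mean ± SD of 5 samples. Sample 12 is highest of all for Uqcrq, at 6743, and lowest for Uqcrc1, at 2781, and for Atp5a1, at 14420.

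In complex IV, all 4 subunits with a single gene rose, as did 5 of the 6 ubiquitous forms, and the tissue-restricted forms were low. Cox5a, Cox5b, Cox6c and Cox7c, the single-gene subunits around the mitochondrially encoded core, were higher by 0.27 to 0.39 on the log2 scale. Cox4i1, Cox6b1, Cox7a2, Cox7b and Cox8a were higher by 0.16 to 0.30, and Cox6a1 was not called at 0.10 (95% interval 0.004 to 0.20, adjusted p = 0.0952). It passed under upper-quartile rescaling (0.16, adjusted p = 0.0146), quantile normalization (0.15, adjusted p = 0.0265) and without control 4 (0.13, adjusted p = 0.0499). Cox7a2l, a relative of subunit 7a that takes part in joining complexes III and IV into supercomplexes, was lower.

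Cox7c (chr13:86044816-86046904) had 6913, 6788, 6251, 6592 and 7759 normalized counts in labelled Sirt1-deleted samples 7, 8, 10, 11 and 12. Controls 2 to 6 had 4702, 5016, 5633, 5089 and 5648. The groups did not overlap, with sample 12 at the top and control 2 at the bottom. The means were 6861 ± 561 and 5218 ± 413 (SD, n = 5 each), with a log2 difference of 0.39 (SE 0.07, adjusted p = 0.00144). With the length and GC correction it remained higher, at 0.20 (adjusted p = 0.0262). The pseudogene Gm12338 has a transcript identical to Cox7c over 192 bases and a mean of 10.1% of its level, so reads of the pair may have been divided between them. Cox7c summed with its pseudogene copies kept its call.

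Cox5a (chr9:57521274-57532426), a nuclear subunit on the matrix side, had 7505, 7311, 7120, 7385 and 8117 normalized counts. Its controls had 5241, 5976, 5935, 5919 and 6291. All labelled Sirt1-deleted samples were above all controls by a wide step. The log2 difference of 0.35 (SE 0.05, adjusted p = 9.24e-04) fell to 0.17 with the length and GC correction and still passed (adjusted p = 0.0108). Cox5a and Cox7c were the 2 complex IV genes that were higher after it. Cox5b, Cox6c, Cox7b and Cox8a, at 0.31, 0.27, 0.30 and 0.28 before the correction, stood at 0.12, 0.08, 0.11 and 0.08 after it, none of them called.

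Cox6b2 (chr7:4751792-4753094), whose protein is the testis form of subunit 6b, had the largest difference of the complex and lower values than its ubiquitous partner. It had 666, 678, 526, 617 and 849 normalized counts in labelled Sirt1-deleted samples 7, 8, 10, 11 and 12. Controls had 504, 404, 564, 404 and 531. The groups overlapped, because sample 10 lay below controls 4 and 6. The log2 difference was 0.47 (SE 0.13, adjusted p = 0.0162). An exact rank-sum test in place of limma did not call it (adjusted p = 0.0823), nor did limma after the length and GC correction (0.27, adjusted p = 0.123). Testis markers were near 0, with 4 of 7 in the table and sums of at most 35.4 normalized counts in labelled Sirt1-deleted spleens and 39.4 in control spleens. None was at 0 in every sample.

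Cox6b1, the ubiquitous 6b gene, had 5146, 5265, 4955, 5222 and 6234 normalized counts against 4404, 4570, 4899, 4612 and 4854. The step between the groups was narrow, from control 4 to sample 10. Its difference of 0.20 (adjusted p = 0.0256) lost its call without control 2 (0.18, adjusted p = 0.0638), control 3 (0.19, adjusted p = 0.0542) or control 5 (0.19, adjusted p = 0.0542). It was also lost without the intensity trend (adjusted p = 0.0524) and after the correction (0.006, adjusted p = 0.945). Within samples, the log2 ratio of Cox6b2 to Cox6b1 was -3.02 ± 0.14 and -3.29 ± 0.20 (SD, n = 5 each). The difference of 0.27 did not pass the exact two-sided permutation test over all assignments of samples to groups (p = 0.0556, adjusted over 7 ratios p = 0.13).

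Cox4i1 (chr8:120668222-120674207), the ubiquitous form of the largest nuclear subunit, had 14660, 13900, 13070, 13990 and 14580 normalized counts. Controls had 11620, 12160, 13330, 12140 and 12580. Control 4 lay above sample 10, so the groups overlapped. The log2 difference was 0.18 (SE 0.05, adjusted p = 0.0118), and it was 0.004 after the length and GC correction (adjusted p = 0.949). The exact rank-sum test did not call it (adjusted p = 0.0512). Cox4i2, a form known from lung and from low oxygen, had 25.9, 31.8, 45.0, 29.5 and 21.8 normalized counts against 34.9, 35.8, 42.9, 23.1 and 22.3. The groups were mixed, at a difference of -0.04 (95% interval -0.60 to 0.51, adjusted p = 0.920). The ratio of Cox4i2 to Cox4i1 differed by -0.22 (exact permutation p = 0.397, adjusted p = 0.463).

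Subunit 7a has 3 related genes here, and they did not move alike. Cox7a2 (chr9:79755361-79759878), the ubiquitous form, had 3873, 3812, 3705, 4001 and 3801 normalized counts against 3163, 3373, 3417, 3658 and 3586. The groups did not overlap, although control 5 came close to sample 10. The difference of 0.16 (adjusted p = 0.0227) lost its call without control 2 (0.13, adjusted p = 0.0547) or control 3 (0.15, adjusted p = 0.0512), and after the correction (-0.006, adjusted p = 0.935). Cox7a2l (chr17:83501918-83517330) had 6107, 6039, 5598, 5725 and 5905 against 6217, 6835, 6821, 6177 and 6490. Every labelled Sirt1-deleted value was below every control, by a narrow step. The difference was -0.15 (SE 0.05, adjusted p = 0.0260). C57BL/6 mice are known to carry a form of this gene that encodes a shortened protein.

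The Cox7a2l call was fragile. It was lost without control 3 (adjusted p = 0.0681), control 4 (adjusted p = 0.0643) or sample 11 (adjusted p = 0.0505), and without samples 10 and 11 together (-0.11, adjusted p = 0.0846). It was also lost under upper-quartile rescaling (-0.09, adjusted p = 0.199) and quantile normalization (-0.11, adjusted p = 0.117), and without the intensity trend (adjusted p = 0.0509). After the length and GC correction it was larger, at -0.28 (adjusted p = 0.00101). The ratio within a sample does not depend on the scaling of samples. The log2 ratio of Cox7a2l to Cox7a2 was 0.61 ± 0.06 with the deletion label and 0.92 ± 0.11 without it (SD over 5 samples), with ranges of 0.52 to 0.66 and 0.76 to 1.02. They did not overlap, and the difference of -0.31 passed (exact permutation p = 0.00794, the smallest that 5 against 5 can give, adjusted p = 0.0278). In isoform ratio Cox7a2l/Cox7a2, leaving out any 1 labelled Sirt1-deleted sample gave differences of -0.32 to -0.28 with the groups still apart and an adjusted permutation p of 0.0556, and leaving out any 1 control kept it at 0.0278.

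The muscle form Cox7a1 was low, at 59.8, 73.2, 70.6, 55.4 and 68.7 normalized counts against 59.6, 64.6, 66.1, 49.1 and 64.8. The groups were mixed, at a difference of 0.11 (95% interval -0.22 to 0.44, adjusted p = 0.619) that turned to -0.13 under quantile normalization. Its ratio to Cox7a2 differed by -0.05 (exact permutation p = 0.746, adjusted p = 0.746). The muscle form Cox6a2 averaged 7.23 normalized counts in labelled Sirt1-deleted samples against 7.58, and the testis form Cox7b2 1.16 and 0.765, both under the mean of 10 and not tested. Of 12 striated muscle markers, 3 were tested and not called, and the 8 in the table summed to 132 to 181 normalized counts against 126 to 179. Of these 8, 5 had a mean under 10 and none was at 0 in every sample.

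In ATP synthase, higher calls lay in the membrane part, the c ring, the stalk and 1 small F1 subunit, and none among the large F1 subunits. All 4 small accessory subunits of the membrane part (Atp5k, Atp5j2, Atp5l and Atp5mpl) were higher, by 0.19 to 0.37 on the log2 scale. The c-ring genes Atp5g1 and Atp5g3 and the stalk genes Atp5f1 and Atp5j were higher too. In F1, the catalytic head, Atp5a1 (alpha) was lower, the small Atp5e (epsilon) was higher, and Atp5b (beta), Atp5c1 (gamma) and Atp5d (delta) were not called.

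Atp5k (chr5:108433244-108434448), whose protein is subunit e, is known with subunit g for holding ATP synthase dimers together. It had 3276, 3326, 3177, 3369 and 3836 normalized counts in labelled Sirt1-deleted samples 7, 8, 10, 11 and 12. Controls 2 to 6 had 2353, 2657, 2760, 2591 and 2741. The groups stood well apart, with sample 12 highest and control 2 lowest. The means were 3397 ± 256 and 2620 ± 164 (SD, n = 5 each), a log2 difference of 0.37 (SE 0.06, adjusted p = 0.00127), and it was 0.17 after the length and GC correction (adjusted p = 0.0360).

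Atp5j2 (chr5:145183698-145192062), subunit f, had 6105, 5876, 5401, 5908 and 6873 normalized counts against 4177, 4584, 4969, 4515 and 5151. No value of one group reached the other. The difference was 0.37 (SE 0.07, adjusted p = 0.00256), and 0.18 after the correction (adjusted p = 0.0313). Atp5l (chr9:44912557-44920742), subunit g, had 6333, 6110, 5913, 5952 and 7217 against 4558, 5149, 5419, 5168 and 5372. These were separate as well, with sample 12 standing above the others. Its difference of 0.30 (SE 0.06, adjusted p = 0.00483) was 0.10 after the correction (adjusted p = 0.172). Atp5mpl, the 6.8 kDa proteolipid in the table's naming, differed by 0.19 (adjusted p = 0.0337) with overlap, and was not called in 6 of the 10 fits without 1 sample. Those were the fits without control 2 (adjusted p = 0.0846), control 3 (0.0696), control 5 (0.0611), sample 7 (0.0527), sample 11 (0.0543) or sample 12 (0.0686). Nor was it called by the exact rank-sum test (0.0512), without the intensity trend (0.0610) or after the correction (-0.04, adjusted p = 0.589).

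The 3 c-ring genes encode the same mature protein with different import sequences. Atp5g1 (chr11:96068852-96075670) had 5403, 5617, 5666, 5937 and 5751 normalized counts against 4307, 4564, 4648, 4816 and 4830. The groups were clearly separate, and sample 12 was not the highest here. The difference was 0.29 (SE 0.05, adjusted p = 9.42e-04), and 0.12 after the correction (adjusted p = 0.0534). Atp5g3 (chr2:73908447-73911326) had 15820, 15500, 16550, 16550 and 16850 against 13280, 13630, 15120, 14470 and 14900. Control 4 came near sample 8, but the groups did not overlap. The difference was 0.19 (SE 0.05, adjusted p = 0.00961), and 0.02 after the correction (adjusted p = 0.730).

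Within samples, the log2 ratio of Atp5g1 to Atp5g3 was -1.52 ± 0.04 with the deletion label and -1.62 ± 0.05 without it (SD over 5 samples). The difference of 0.11 passed (exact permutation p = 0.00794, adjusted p = 0.0278). In isoform ratio Atp5g1/Atp5g3, leaving out any 1 labelled Sirt1-deleted sample gave differences of 0.09 to 0.11, again with the groups apart, at an adjusted permutation p of 0.0556. Atp5g2 (chr15:102662864-102672352) had 948, 744, 910, 850 and 789 normalized counts against 742, 852, 1036, 677 and 783. The groups were mixed, at a difference of 0.06 (95% interval -0.17 to 0.30, adjusted p = 0.690). That value is uncertain, because the pseudogene Gm10175 (chr7:23946646-23947290) is identical to Atp5g2 over 645 bases and held 91.3% of the counts of the pair. Atp5g2 and Gm10175 together had 9545 to 10910 normalized counts with the deletion label and 8340 to 9666 without it. With all its copies added, the gene was called higher, by 0.17 (adjusted p = 0.0189). The ratios of Atp5g1 and Atp5g3 to Atp5g2, which carry the same doubt, differed by 0.23 (exact permutation p = 0.127, adjusted p = 0.222) and 0.13 (exact permutation p = 0.310, adjusted p = 0.433).

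Atp5a1 on chromosome 18, the alpha subunit that alternates with beta in the F1 head, had 15590, 16840, 19600, 19400 and 14420 normalized counts in the labelled Sirt1-deleted samples. Controls had 21630, 20070, 20720, 20700 and 20690. All labelled Sirt1-deleted samples were below all controls, but samples 10 and 11 only just, while sample 12 was lowest. The means were 17170 ± 2293 and 20760 ± 555 (SD, n = 5 each), a log2 difference of -0.28 (SE 0.08, adjusted p = 0.0139). It kept its call in all 10 fits without 1 sample, in the length and GC correction (-0.31, adjusted p = 0.00680) and without samples 10 and 11 (-0.41, adjusted p = 1.91e-04). Its partner Atp5b, the catalytic beta subunit, differed by 0.006 (95% interval -0.11 to 0.12, adjusted p = 0.949). Its values of 43380, 44660, 50110, 51090 and 44390 fell on both sides of the controls' 45060, 45520, 46720, 47700 and 47220.

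Gamma, the rotor shaft, had a negative difference that did not pass. Atp5c1 had 7145, 7941, 8842, 9006 and 5869 normalized counts against 9392, 8898, 9039, 9314 and 9147. Samples 7, 8, 10 and 12 were below all controls, and sample 11 overlapped them. The difference was -0.26 (95% interval -0.47 to -0.05, adjusted p = 0.0556). It passed without sample 10 (adjusted p = 0.0228), without sample 11 (adjusted p = 0.0225) and without both (-0.40, adjusted p = 0.00191), and with array weights (adjusted p = 0.0146). Atp5d, at -0.14 (95% interval -0.27 to 0.002, adjusted p = 0.112), passed without both (-0.21, adjusted p = 0.0142) and by the exact rank-sum test (adjusted p = 0.0332), and both genes were lower after the length and GC correction (-0.39 and -0.29). Atp5e, the smallest F1 subunit, was higher by 0.29 (adjusted p = 0.00401) without overlap, and stood at 0.09 after the correction (adjusted p = 0.172).

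The stalk holds the F1 head still against the turning c ring. Atp5f1 (subunit b) was higher by 0.25 (adjusted p = 0.00229) without overlap, and remained so after the correction, at 0.16 (adjusted p = 0.0171). Atp5j (F6) was higher by 0.14 (adjusted p = 0.0262), which was lost without control 2 (0.11, adjusted p = 0.0628), control 3 (0.13, adjusted p = 0.0565) or control 5 (0.13, adjusted p = 0.0566), and after the correction (-0.02, adjusted p = 0.677). Atp5h (subunit d) was not called at 0.12 (95% interval 0.02 to 0.23, adjusted p = 0.0671), and passed under upper-quartile rescaling (0.18, adjusted p = 0.0183) and quantile normalization (0.17, adjusted p = 0.0200). It also passed after rescaling to totals without the 10 highest genes (0.13, adjusted p = 0.0464), without control 4 (adjusted p = 0.0495) or sample 10 (adjusted p = 0.0414). Atp5o, which joins the stalk to the head, differed by -0.10 (95% interval -0.23 to 0.02, adjusted p = 0.184) and passed as lower without sample 11 (-0.15, adjusted p = 0.0244), without samples 10 and 11 (-0.18, adjusted p = 0.00727) and after the correction (-0.25, adjusted p = 0.00801). Exons of Donson overlap those of Atp5o on the same strand over 287 bases, so its value is uncertain. A further 9 of the 41 genes share exonic bases with a gene of the table on the opposite strand. Whether strand was used in counting is not given in the sources used here. Atp5s, named factor B and not a structural subunit, was not called at 0.29 (95% interval -0.001 to 0.58, adjusted p = 0.109).

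Levels were compared between genes per kilobase of transcript, using the middle-length transcript of each gene in GENCODE M21. By mean over the 10 samples, Atp5b was the most abundant at 24310 normalized counts per kilobase, then Atp5g3 at 21380 and Cox4i1 at 17720. Uqcrh led complex III, at 14320. The core genes Uqcrc1 and Uqcrc2 stood at 2354 and 3874 per kilobase. Of the tissue forms, Cox6b2 stood at 1320, Cox7a1 at 161, Cox4i2 at 43.0, Cox6a2 at 10.9 and Cox7b2 at 1.77 per kilobase, and Atp5s stood at 123. Atp5g2 stood at 1889 per kilobase, without the reads listed under Gm10175, which stood at 19910. With those reads added, Atp5g2 would stand above Atp5g3 in this order and below Atp5b.

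The differences ran with coding length. Of 16 tested subunit genes with up to 300 coding bases, 15 were higher, with a median log2 difference of 0.28, and the other, Cox7a1, was not called. Of 15 genes with more than 300 and up to 600 coding bases, 8 were higher and 1 lower, with a median of 0.18. All 1573 tested protein-coding genes of that class gave 29.1% higher and 8.39% lower. Of 4 genes with more than 600 and up to 900 coding bases, 1 was higher (Atp5f1) and 3 were not called, where all 1910 of that class gave 18.7% higher and 13.4% lower. Of the 4 genes with more than 900 coding bases, Atp5a1 was lower, and Uqcrc1, Uqcrc2 and Atp5b were not called. All tested protein-coding genes of 901 to 1500 bases gave 16.7% higher and 19.5% lower. Those of 1501 to 3000 bases gave 12.4% and 27.4%. Across the 39 genes, Spearman's rho between coding length and log2 difference was -0.60, and it was -0.69 in complex III (8 genes), -0.30 in complex IV (14 genes) and -0.70 in ATP synthase (17 genes). These genes share the libraries, so the coefficients are descriptions. The same slope was present, more weakly, over all 13886 tested protein-coding genes, at -0.19. Among all 312 tested genes with up to 300 coding bases, 44.9% were higher and 4.17% lower, with a median of 0.23 and quartiles of 0.03 and 0.39. Why the short genes of the table were higher as a class was not tested.

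**Figure D3:**
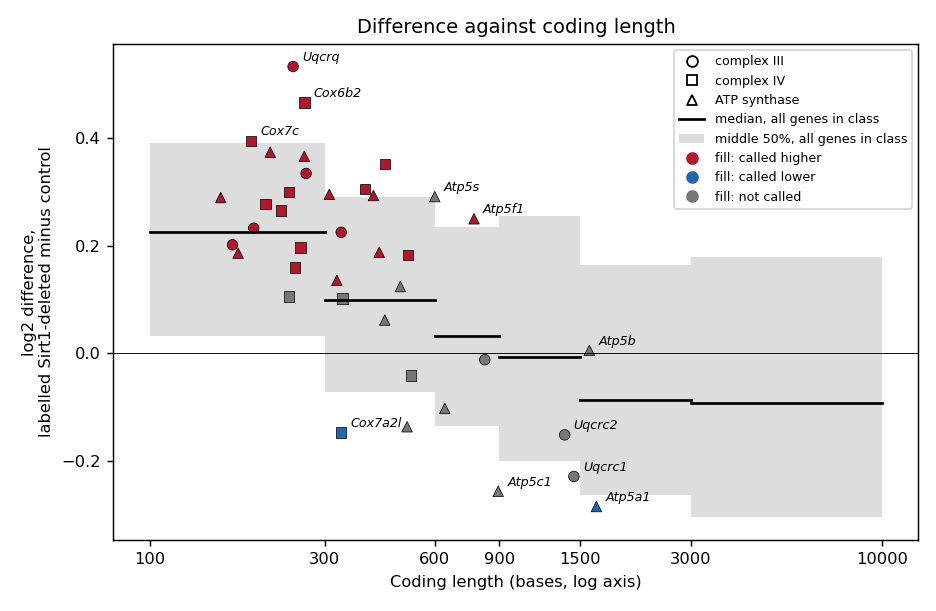
Log2 difference (labelled Sirt1-deleted minus control, vertical axis) against coding length in bases (horizontal log axis) for the 39 subunit genes, coloured by call and shaped by complex, with the median (black lines) and quartiles (grey bands) of all tested protein-coding genes in each length class. The class median falls from 0.23 at up to 300 bases to -0.09 above 3000 bases, and the 16 subunit genes of up to 300 bases have a median of 0.28.

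By sample, the short subunit genes separated the groups, while the 4 long ones did not, with sample 11 inside the control range. For each sample, the log2 deviation of each gene from its control mean was taken, and the median over genes is given. The 16 genes of up to 300 coding bases stood at 0.32, 0.26, 0.16, 0.22 and 0.43 in labelled Sirt1-deleted samples 7, 8, 10, 11 and 12, and at -0.12 to 0.10 in controls. The 4 genes over 900 coding bases stood at -0.26, -0.15, -0.04, -0.02 and -0.44, and at -0.04 to 0.02 in controls. Sample 12 was the most extreme in both directions, and samples 10 and 11 were nearest the controls in both. All 312 genes of up to 300 coding bases gave 0.24, 0.24, 0.14, 0.20 and 0.36, in the same order of samples. All 10091 genes over 900 coding bases gave -0.04, -0.05, -0.04, -0.05 and -0.08.

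**Figure D4:**
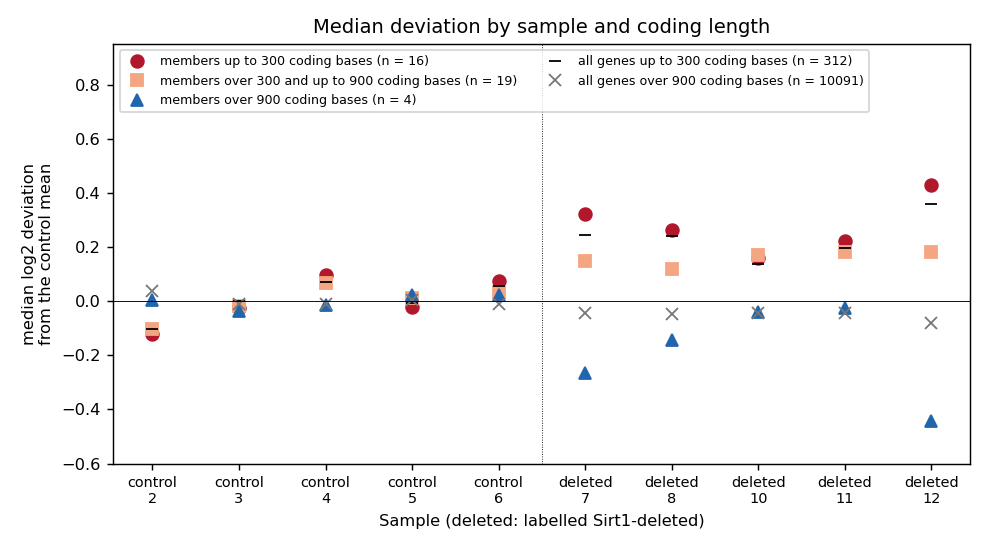
Median log2 deviation from the control mean (vertical axis) in each of the 10 samples (horizontal axis), for subunit genes in 3 classes of coding length and for all tested genes of the shortest and of the longer lengths. In sample 12 the short subunit genes stand at 0.43 and the 4 long ones at -0.44, while controls stay between -0.12 and 0.10.

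Partner genes of the complexes were read from a list of 61 other subunits, assembly factors, carriers and complex II genes, of which 60 were in the table and tested. Of these, 21 were higher, 11 were lower and 28 were not called, with a median log2 difference of 0.08, beside the 16.8% and 19.4% of all tested genes. All 6 mitochondrially encoded subunits on the list were higher, by 0.25 to 0.47, with no overlap of the groups. The 54 nuclear partners had 15 higher and 11 lower, with a median of 0.04. After the length and GC correction 4 of the 60 were higher and 17 lower, beside 11.9% and 25.2% of all tested genes.

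The mitochondrially encoded subunits include catalytic or proton-carrying partners of the nuclear ones. Cytochrome b of complex III, mt-Cytb, had 153100, 129600, 110600, 110700 and 152700 normalized counts in labelled Sirt1-deleted samples 7, 8, 10, 11 and 12. Controls 2 to 6 had 80010, 97710, 97280, 97240 and 98650. Every labelled Sirt1-deleted sample was above every control, with samples 7 and 12 highest and control 2 lowest. The log2 difference was 0.47 (SE 0.10, adjusted p = 0.00465). Of complex IV, mt-Co1 differed by 0.38 (adjusted p = 0.00712), mt-Co2 by 0.47 (adjusted p = 0.00313) and mt-Co3 by 0.31 (adjusted p = 0.0118). Of ATP synthase, mt-Atp6 differed by 0.39 (adjusted p = 0.00559) and mt-Atp8 by 0.25 (adjusted p = 0.0286). The 2 ATP synthase genes overlap in mitochondrial DNA, so their reads may be divided, and mt-Atp8 passed in only 6 of 10 fits without 1 sample. After the length and GC correction none of the 6 was called higher by limma, with mt-Cytb at 0.22 (adjusted p = 0.0515), and mt-Atp8 was lower, at -0.42 (adjusted p = 0.00314).

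The largest rises among the partners besides mt-Co2 were in assembly factors of complex IV. Cox17, the copper chaperone of complex IV, had 3108, 2964, 2727, 2902 and 3401 normalized counts against 1724, 2138, 2163, 2231 and 2349. The groups did not overlap, at a difference of 0.51 (SE 0.08, adjusted p = 0.00114), and it remained higher after the correction, at 0.31 (adjusted p = 0.00478). Pet100 had 633, 488, 480, 476 and 751 against 341, 376, 398, 388 and 490. Control 6 lay above samples 8, 10 and 11. The difference was 0.49 (SE 0.14, adjusted p = 0.0163), and 0.29 after the correction (adjusted p = 0.105).

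The largest falls were in Pet117, Etfdh and Coa7. Etfdh, which feeds electrons from fatty acid and amino acid oxidation to ubiquinone, had 1042, 1108, 1338, 1224 and 911 normalized counts against 2201, 1694, 1873, 1830 and 1786. The groups were far apart, at -0.75 (SE 0.10, adjusted p = 5.01e-04). Coa7, an assembly factor of complex IV, had 368, 423, 602, 601 and 304 against 785, 731, 756, 745 and 598. Samples 10 and 11 lay level with control 6, and the difference was -0.70 (SE 0.17, adjusted p = 0.00862). Pet117 was near 0, with 4 labelled Sirt1-deleted samples at 0 and sample 12 at 3.95, against 46.4, 69.5, 3.57, 24.1 and 1.06. Its controls spread over a wide range, and its fitted difference of -3.46 (adjusted p = 0.0129) depends on the constant of 1 added before the logarithm.

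Complex II, which has no subunit in the set, had 1 of its 4 genes called: Sdhc was higher by 0.12 (adjusted p = 0.0470), a call kept in 1 of 10 fits without 1 sample and absent after the correction (-0.03, adjusted p = 0.584), and Sdha, Sdhb and Sdhd were not called, at -0.05, -0.12 and 0.08. Among the electron carriers, cytochrome c (Cycs), which links complexes III and IV, was higher by 0.43 (adjusted p = 4.07e-04), and by 0.36 after the correction (adjusted p = 6.63e-04). Cyc1, cytochrome c1 of complex III, differed by 0.006 (adjusted p = 0.968). Usmg5 and Atpif1, an accessory subunit and the inhibitor of ATP synthase whose symbols fall outside the rule, were higher by 0.20 (adjusted p = 0.00951) and 0.21 (adjusted p = 0.0165). After the correction they stood at -0.02 (adjusted p = 0.823) and 0.02 (adjusted p = 0.790). Of the chaperones that assemble F1, Atpaf1 was lower by -0.50 (adjusted p = 0.00202) and Atpaf2 was not called at 0.05.

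**Figure D5:**
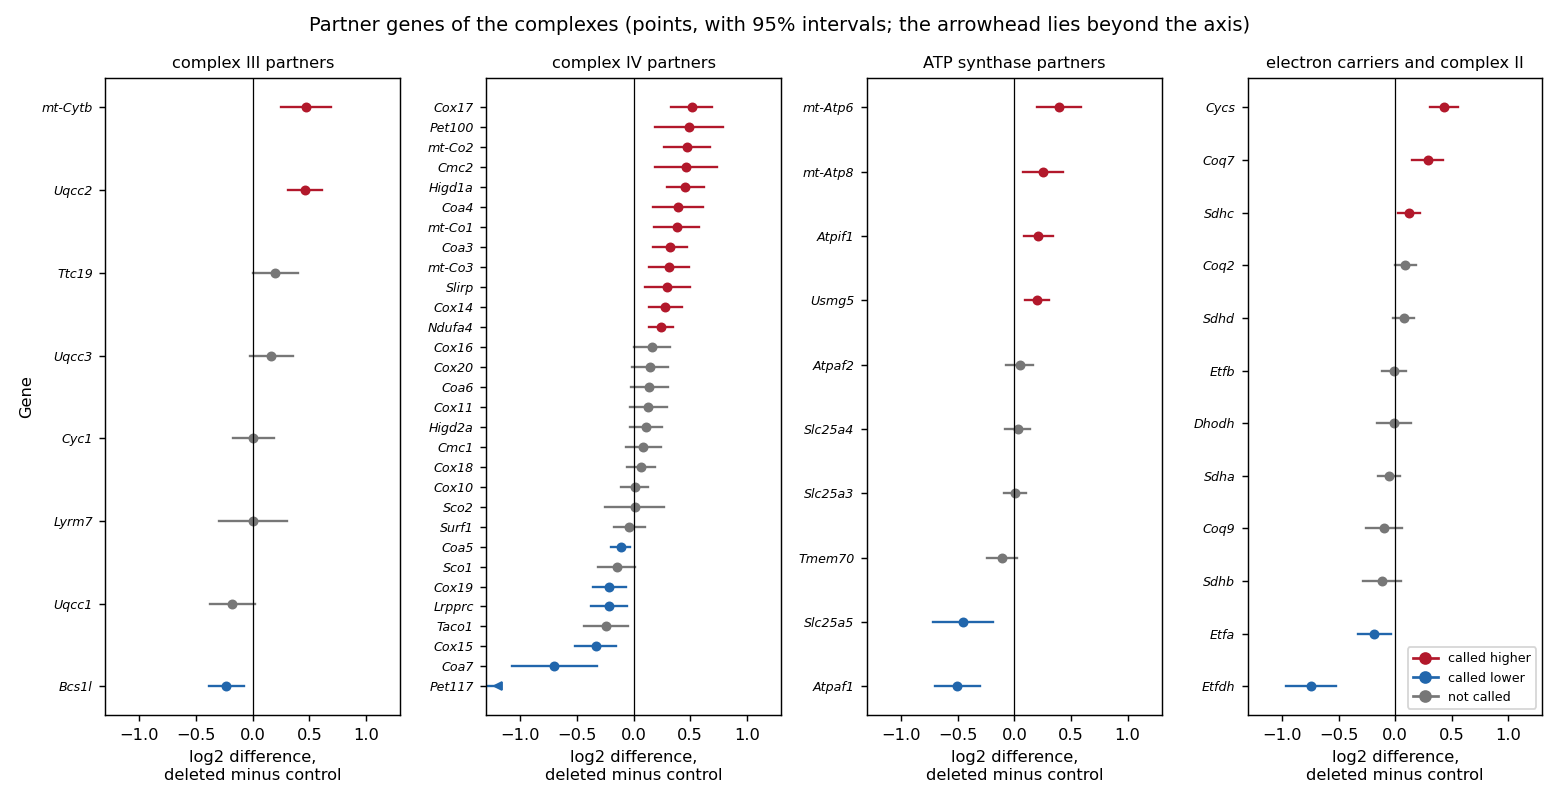
Log2 difference (labelled Sirt1-deleted minus control, horizontal axis) with 95% interval for the 60 partner genes (vertical axis), in 4 panels by complex. Red genes were called higher, blue lower and grey were not called: the 6 mitochondrially encoded genes stand at 0.25 to 0.47, and Pet117 lies beyond the axis at -3.46.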

How the data were processed

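RNA from 10 leukemic spleens was sequenced. The authors deposited a table of DESeq-normalized counts per gene symbol, which is used here as a signal and not as raw counts. Per the submitters' processing notes, kallisto 0.44.0, DESeq and mm10 were used, with no role or order given. Which annotation and gene filter were applied is not given in the sources used here, and depth is unknown because whole reads could not be recovered. Sums were 33.7 to 34.5 M (mega) per sample.

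Log2(value + 1) was fitted with limma 3.58.1 (R 4.3.3, group only, intensity trend) for the 15276 genes with a mean of at least 10, with Benjamini-Hochberg adjustment at 0.05. Differences on this scale understate the change of low genes. The script was tested on simulated data for 15276 genes: limma found every one of 100 genes altered 2-fold, 80 of 100 altered by a factor of 1.5, and 9 unaltered genes. The simulated samples were independent, with 1 spread setting for all genes. Every tested subunit gene differed by less than 1.5-fold (Uqcrq, the largest, 1.45-fold). The simulation therefore checks the script and does not give the power or error rate for these differences. Isoform ratios had an exact two-sided permutation test (7 of 11 listed pairs with both genes tested). Lengths and positions came from GENCODE M21 (GRCm38), matched for all 41 genes, and copies of their transcripts from blastn 2.17.0 (at least 90% identity over 80% of the copy). Genes were named in full by rule: in each complex the 3 called genes with the largest rises and falls, tested isoform pairs, the 3 largest called rises and falls of the partners and the mitochondrially encoded subunits. Uqcrc1, Atp5b, Atp5c1, Cycs and others outside it were chosen after their values were seen. The members and lists were chosen with earlier results of these data known. Alternatives covered pseudocount, filter, scaling, test, threshold, copies, length and GC content, together and each alone (natural splines of 5 degrees of freedom in each sample), and each sample left out. The length and GC corrections also recentred every sample to the same mean log2 value over the genes.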

Additional observations from a re-analysis of the deposited data

Results flagged for a closer look

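For the 39 tested subunit genes, Dixon's ratio (distance of the highest or lowest of 5 values from the next, over their whole range) was set against its critical value of 0.71 in each group. It was exceeded in 2 of 78 groups, where chance at 1 in 20 gives about 3.9. Uqcrb, an accessory subunit of complex III, was lowest in control sample 2, at 3246 normalized counts against 3723 to 3864 in the other controls (ratio 0.772). Cox6b1, the ubiquitous 6b subunit of complex IV, was highest in labelled Sirt1-deleted sample 12, at 6234 against 4955 to 5265 in the others of its group (ratio 0.757).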

How the results depend on the processing

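No paired analysis was possible because no number occurs in the titles of both groups. Adding rows with a pseudogene suffix to a gene was not run, since 0 such rows of a subunit gene are in the table. Of the 26 called subunit genes, 21 were called under all 11 other settings of pseudocount, filter, scaling and test that kept the samples and the threshold, and 21 in all 10 fits without 1 sample. At an adjusted p under 0.01, complex IV had 6 higher and 0 lower, ATP synthase 0 lower, and the partners 13 higher and 4 lower. The exact rank-sum test gave 1 lower gene in complex III, 2 in ATP synthase and 6 among the partners, and array weights gave 2 lower in complex III and 2 in ATP synthase. Shares of all tested genes for these settings and for the fits without 1 sample are not given here. The lower call of complex IV (Cox7a2l) was absent, leaving 0, without trend, under quantile normalization and under upper-quartile rescaling. The partners then had 7 lower with quantile and 6 with upper-quartile scaling. The calls over all genes moved too. Of 15276 tested genes 2562 were higher and 2956 lower in the main fit, and 2470 and 2743 with quantile normalization. Upper-quartile rescaling gave 3162 higher and 2270 lower of 15282. After the length and GC correction, complex III had 1 higher and 3 lower, complex IV 2 higher, ATP synthase 3 higher and 4 lower, and the partners 4 higher and 17 lower. All tested genes then gave 11.9% higher and 25.2% lower. With length alone corrected, complex III had 1 higher and 2 lower, complex IV 2 higher, ATP synthase 2 higher and 4 lower, and the partners 8 higher. With GC content alone corrected, 2 genes were lower in complex III and 2 in ATP synthase. The shares of all tested genes were 11.6% higher and 25% lower for length alone, and 12.8% and 27.1% for GC content alone. Without samples 10 and 11, 2 genes were lower in complex III, 0 in complex IV and 4 in ATP synthase. All tested genes then gave 21% higher and 24.5% lower. In that setting 0 isoform ratios passed the exact test. There isoform ratio Cox7a2l/Cox7a2 and isoform ratio Atp5g1/Atp5g3 each had an adjusted permutation p of 0.0833 at differences of -0.27 and 0.10, with the groups still apart. With these samples left out the exact test has fewer assignments and its smallest possible p is larger. It therefore cannot tell a weaker difference from the smaller number of samples. Across the fits without 1 sample, complex III had 5 to 5 higher and 0 to 2 lower, complex IV 8 to 11 higher and 0 to 1 lower, ATP synthase 7 to 10 higher and 1 to 3 lower, the partners 18 to 21 higher and 6 to 12 lower, and 0 to 2 isoform ratios passed. The cause of these shifts was not tested.

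The sign of some differences turned. The length and GC corrections also recentred every sample, and their values below include that shift. The median of all tested genes was -0.07 with both corrected, -0.07 with length alone and -0.06 with GC content alone. Under the length and GC correction the log2 difference was -0.00357 for Uqcrb, -0.00511 for Uqcr11, -0.0937 for Cox6a1, -0.0928 for Cox7a1, -0.00564 for Cox7a2, -0.0465 for Atp5b, -0.144 for Atp5g2, -0.0500 for Atp5h, -0.0229 for Atp5j and -0.0440 for Atp5mpl. With length alone corrected it was -0.00628 for Uqcr11, -0.0929 for Cox6a1, -0.0195 for Cox6b1, -0.107 for Cox7a1, -0.0263 for Cox7a2, -0.0693 for Atp5b, -0.146 for Atp5g2, -0.0653 for Atp5h, -0.0415 for Atp5j and -0.0292 for Atp5mpl. With GC content alone corrected it was -0.0432 for Atp5b and -0.00243 for Atp5g2. Atp5b was -0.0268 with array weights, -0.0528 with quantile normalization and -0.0730 without samples 10 and 11. Uqcrfs1 was 0.0378 with quantile normalization and 0.0476 with upper-quartile rescaling. Cox7a1 was -0.129 with quantile normalization, and Cox4i2 was 0.0159 with upper-quartile rescaling. Without 1 sample, the ranges were -0.0419 to 0.00709 for Uqcrfs1, -0.185 to 0.0754 for Cox4i2, -0.0273 to 0.0317 for Atp5b, -0.00242 to 0.151 for Atp5g2 and -0.151 to 0.0186 for the ratio of Cox7a1 to Cox7a2.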
